A study of Homo sapiens with 18 samples.

Results

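The genes described here are 47 components of the DNA replication machinery, chosen by symbol from a list of origin and fork proteins and found in a table of 57773 genes. They cover 9 roles, from the origin recognition complex to chromatin assembly behind the fork, and each was read in all 18 libraries of the series. The cells were RPE1, an established human retinal pigment epithelial line immortalised with telomerase, grown with 10% serum. There were 3 treatments. Cells were left untreated, given cytochalasin D, which blocks actin polymerisation and cell division after mitosis, or given ZM447439, an inhibitor of Aurora kinases. Each treatment was stained with the DNA dye Hoechst at 2 µg/mL for 60 min and sorted by flow cytometry into cells with 2N and cells with 4N DNA content, which gave 6 groups of 3 libraries. ZM447439 was used at 2.5 µM for 24 h. This treatment text stands on all libraries in the labels, untreated ones included, and neither the dose nor the duration of cytochalasin D is stated there. The design names biological replicates, but no source used here says which libraries came from which culture, so p-values measure the spread between libraries. A 4N gate can hold both diploid cells that have copied their DNA and tetraploid cells that have not yet done so.

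Replication is licensed before S phase. The origin recognition complex, CDC6 and CDT1 load the MCM2-7 helicase onto origins, and geminin (GMNN) holds CDT1 in check once S phase has begun. The kinase CDC7 with its activator DBF4 then fires origins by joining CDC45 and the GINS complex to the helicase, after which the polymerases, the sliding clamp PCNA and its loader RFC, the single-strand binder RPA and fork protectors carry out synthesis. Many of these genes are transcribed under E2F factors, which are active late in G1 and in S phase, and their transcripts decline in cells that leave the cycle.

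Values are RPKM as deposited, reads scaled to gene length in kilobases and to library size, and in this table the kilobases are those of the whole gene span, introns included. The span was a median of 8.39 times the exon length over these genes, so levels are compared only within a gene. The library sizes implied by the values were 51135642 to 78294394, and the fewest reads behind a value of these genes were 44 (POLE2). These sizes are not plain totals of reads. The reads recovered in genes were 1.062 to 1.101 times the size in untreated 4N libraries and 0.9456 to 1.003 times in ZM447439 4N libraries. RPKM and RPM both carry this scaling, and its source was not tested. Of the 47 genes, 28 averaged 0.5 RPKM or more across the 18 libraries and were tested with limma among 13037 genes. A gene at a low level in some groups could pass that filter through the groups where it was high. The other 19 are given in paragraphs of their own as RPM, reads scaled to the implied library size alone, from a fit that held all 47. Of the 18 libraries, 6 stood apart from the others of their group: untreated number 3 and number 1 of each drug, in both sorts. Within groups, pairs with such a library differed by 28.8 to 84.2 times the variance of counting and the other pairs by 4.11 to 7.2 times. Of the retinal pigment epithelium markers, RPE65 lay at 0 to 0.0356 RPKM and TYR at 0.000445 to 0.00275 RPKM in all libraries. RLBP1 lay at 0.00162 to 0.236, MITF at 0.124 to 0.168 and PMEL at 0.442 to 4.64. BEST1 lay at 47.1 to 141, OTX2 at 2.26 to 4.13, KRT8 at 4.38 to 13 and KRT18 at 39.1 to 121. Being scaled to gene span, these values do not rank the markers against each other. Whether reads of overlapping genes enter the marker values was not examined. The blood cell markers PTPRC, CD3E and HBB reached at most 0.00525 RPKM, and CD14 lay at 0.0178 to 0.434.

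Sequence at the start sites was examined because the genes moved together under both drugs. RefSeq promoter windows (GRCh38.p14, 250 bases before to 50 after the start) were matched for 41 of the 47. An E2F-type sequence (TTTCCCGC, TTTCGCGC, TTTGCCGC or TTTGGCGC, on either strand) stood in 18 of the 41 windows (43.9%) and in 908 of all 27305 windows of that length (3.33%). The CCAAT letters were in 24 of 41 (58.5%) and in 35.7% of all windows, and TTTGAA, the core of the CHR element of genes transcribed in G2 and mitosis, was in 1 of 41 (2.44%; DBF4) and in 15.4% of all windows. The windows below are those of CDC6 (chr17:40287629-40287928, plus strand) and MCM2 (chr3:127598161-127598460, plus strand), which fell in untreated 4N cells, of DBF4 (chr7:87876243-87876542, plus strand), which rose most, and of RFC1 (chr4:39366313-39366612, minus strand), which changed least under the drugs among the 28 tested genes. Capitals mark the matches; the capitals of MCM2 are 2 overlapping matches, 1 on each strand, and those of DBF4 are TTTGAA read on the minus strand.
CDC6: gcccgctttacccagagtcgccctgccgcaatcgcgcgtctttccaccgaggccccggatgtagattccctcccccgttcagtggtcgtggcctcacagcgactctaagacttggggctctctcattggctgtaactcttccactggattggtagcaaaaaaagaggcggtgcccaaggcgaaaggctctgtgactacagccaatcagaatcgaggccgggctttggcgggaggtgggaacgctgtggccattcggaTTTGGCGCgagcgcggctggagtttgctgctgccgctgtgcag
MCM2: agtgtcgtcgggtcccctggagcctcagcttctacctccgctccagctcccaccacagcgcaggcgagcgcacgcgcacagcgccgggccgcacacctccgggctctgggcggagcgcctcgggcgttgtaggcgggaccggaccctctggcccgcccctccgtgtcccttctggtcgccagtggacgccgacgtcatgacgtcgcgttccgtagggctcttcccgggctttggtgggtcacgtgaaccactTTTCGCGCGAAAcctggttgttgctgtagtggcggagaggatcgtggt
DBF4: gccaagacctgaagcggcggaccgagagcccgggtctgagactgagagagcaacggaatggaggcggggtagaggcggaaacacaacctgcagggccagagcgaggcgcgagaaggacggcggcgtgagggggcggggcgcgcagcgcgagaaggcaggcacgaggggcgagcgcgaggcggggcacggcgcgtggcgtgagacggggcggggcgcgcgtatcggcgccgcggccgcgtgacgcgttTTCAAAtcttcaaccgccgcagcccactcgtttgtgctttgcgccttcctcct
RFC1: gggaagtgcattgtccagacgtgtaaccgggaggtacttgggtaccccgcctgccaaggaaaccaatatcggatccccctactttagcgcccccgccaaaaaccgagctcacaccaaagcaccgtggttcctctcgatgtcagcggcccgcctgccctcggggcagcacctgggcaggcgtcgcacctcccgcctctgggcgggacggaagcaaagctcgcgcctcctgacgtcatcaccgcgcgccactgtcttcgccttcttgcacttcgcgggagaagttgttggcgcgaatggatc
The RFC1 window held none of the E2F or TTTGAA letters. The windows shown were picked as examples, and letters and changes did not go together throughout. Of the genes lower in untreated 4N cells, CDC6, MCM2, MCM3, MCM6 and GINS2 had an E2F-type sequence. ORC1, MCM10, TIPIN, RFC1, RFC4, CHAF1A and CHAF1B had none, and MCM4 and MCM5 were not matched. MCM7, level between those sorts, had 2 matches, and FEN1, which fell strongly under cytochalasin D, had none. A match describes letters and not binding.

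In untreated cells, the 4N sort had lower levels of the helicase, of CDC6 and of the chromatin assembly genes than the 2N sort, and higher levels of ORC6 and TIMELESS. Of the 28 genes, 11 fell (4.55% of all genes tested fell) and 2 rose (12.9% of all rose). The median log2 difference was -0.06 over the 28 and 0.04 over all genes tested. On RPM, 14 of all 47 fell and 6 rose (6.73% and 13.6% of all genes). In bulk libraries scaled to their size, fewer cells that express a gene and less RNA per cell cannot be told apart. Over 20 genes of G2 and mitosis taken as phase markers, the summed level was 1737 to 2455 RPM in untreated 2N libraries and 6462 to 6991 in untreated 4N libraries, with 18 of 19 tested genes higher. The part of that shift in the differences below was not tested.

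**Figure D1:**
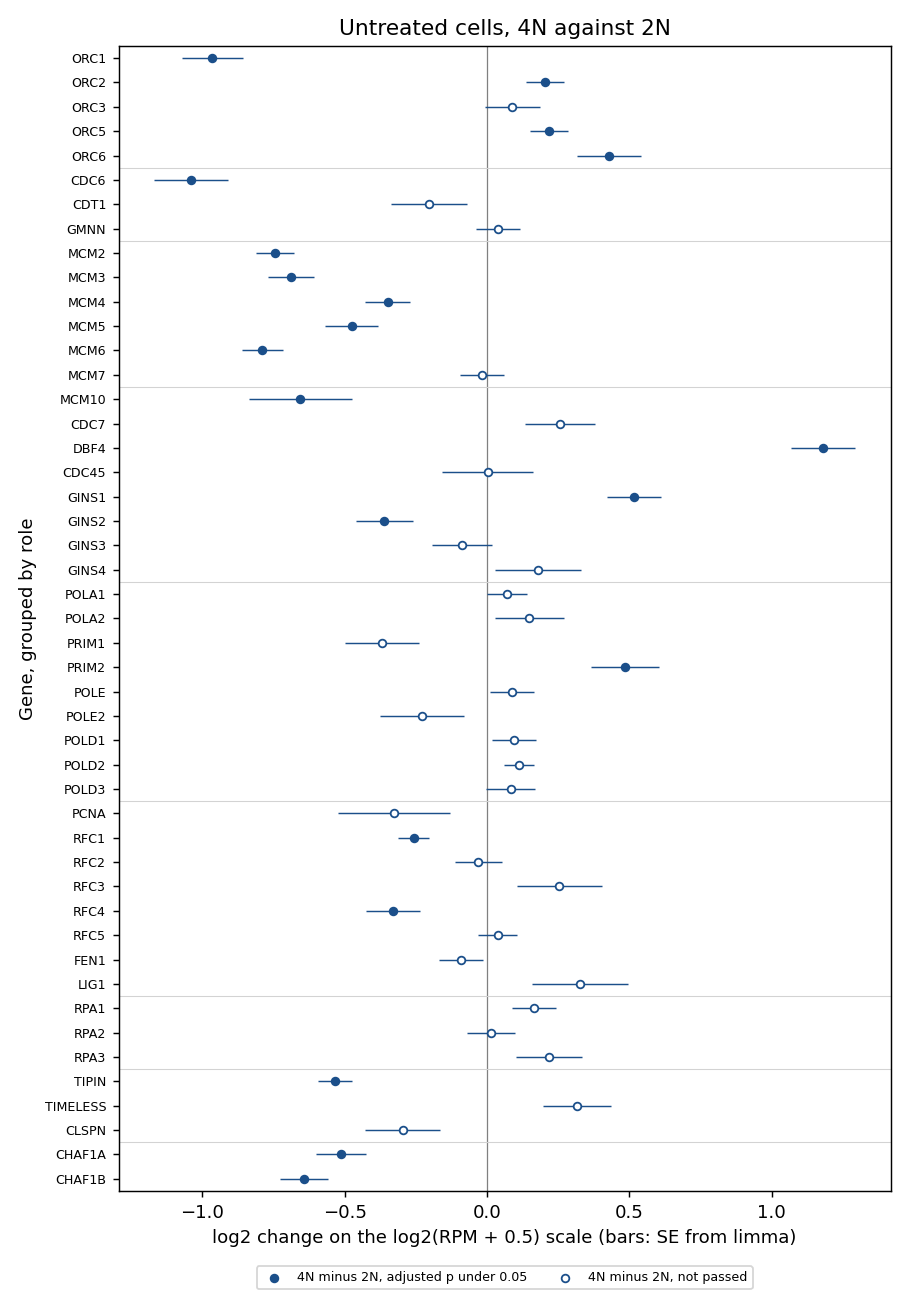
Log2 difference between untreated 4N and untreated 2N cells for all 47 genes, grouped by role, on the log2(RPM + 0.5) scale with the SE from limma (3 libraries a sort); filled points passed at an adjusted p of 0.05. DBF4 stands farthest to the right (1.18) and CDC6 and ORC1 farthest to the left, while 5 of the 6 MCM2-7 genes passed as lower.

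CDC6, the loader that recruits the helicase to origins, was at 6.16, 6.33 and 6.9 RPKM in the untreated 2N libraries and at 3.13, 3.24 and 2.99 in the 4N ones. The groups did not overlap, and the mean in 4N was 2.07-fold lower (log2 change -0.94, SE 0.08, limma adjusted p = 2.15e-06). CDT1 (7.72, 8.33 and 8.37 against 7.42, 7.17 and 6.58; limma adjusted p = 0.227) and its inhibitor GMNN (3.61, 3.74 and 3.77 against 3.72, 3.76 and 3.95; limma adjusted p = 0.754) did not pass. ORC6, a subunit of the origin recognition complex, was higher in every 4N library, at 5.34, 5.12 and 5.14 RPKM against 3.94, 4.01 and 3.62 in 2N (log2 0.39, SE 0.09, limma adjusted p = 0.00605).

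All of MCM2, MCM3, MCM4, MCM5 and MCM6 were lower in 4N cells, and MCM7, the remaining subunit of the same ring, was nearly level. MCM2 lay at 7.12, 7.27 and 7.55 RPKM in 2N and at 4.41, 4.35 and 4.31 in 4N (log2 -0.69, SE 0.05, limma adjusted p = 5.76e-07). MCM6 lay at 3.73, 3.65 and 3.75 in 2N and at 2.16, 2.16 and 2.1 in 4N (log2 -0.67, SE 0.04, limma adjusted p = 1.85e-07). For both, the lowest 2N library was well above the highest 4N library. Of the annotated MCM2 exon bases, 22.7% are shared with a gene on the opposite strand. MCM4 was at 16.4, 16.7 and 15.8 against 13.1, 13.1 and 12.2 (log2 -0.34, limma adjusted p = 0.00276). MCM7 was at 32.9, 33.1 and 32.4 in 2N and 32.5, 32.2 and 32.6 in 4N, with overlapping groups (log2 -0.02, limma adjusted p = 0.923). In log2 terms MCM3 fell by 0.66 and MCM5 by 0.44. Summed over the ring, the level was 1352 to 1366 RPM in 2N and 988.9 to 1024 in 4N.

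Among the firing factors above the filter, GINS2 fell from 3, 3.29 and 3.24 RPKM to 2.36, 2.45 and 2.58 (log2 -0.31, SE 0.06, limma adjusted p = 0.00327). GINS4 was at 3.81, 4.14 and 3.73 in 2N and 4.24, 4.37 and 4.62 in 4N and did not pass (limma adjusted p = 0.396). None of the 4 tested polymerase subunits passed; POLA2, the regulatory subunit of polymerase alpha, was at 1.29, 1.36 and 1.26 against 1.39, 1.4 and 1.55, and POLD2 at 15.6, 15.4 and 15.9 against 16.8, 16.9 and 16.9. Of the clamp, loader, nuclease and ligase genes, RFC1 (1.06, 1.03 and 1.09 in 2N, 0.882, 0.851 and 0.926 in 4N; log2 -0.17, limma adjusted p = 0.00388, and -0.26 on RPM) and RFC4 (log2 -0.27, limma adjusted p = 0.0015) fell. Both encode subunits of the clamp loader.

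PCNA, the clamp itself, was lower in each untreated 4N library (14.9, 15 and 14.8 RPKM) than in each 2N library (18.4, 19.5 and 18.2). It missed the threshold in the fit over all libraries (log2 -0.32, SE 0.19, limma adjusted p = 0.298) and passed with a paired block, in which the 2N and 4N libraries of 1 treatment and number form a pair (limma adjusted p = 0.00179), but not with the replicate number alone as a block over all libraries (0.0917). LIG1, the ligase that joins Okazaki fragments, was at 1.45, 1.49 and 1.34 in 2N and 1.81, 1.8 and 1.76 in 4N, and passed with either block (log2 0.25; limma adjusted p = 0.0703 without a block, 0.00318 with the paired block and 0.0124 with the number). FEN1, the flap nuclease, overlapped between sorts at 22.5, 23.6 and 25.4 against 21, 21 and 25.4. RPA1 (1.68, 1.79 and 1.65 against 1.88, 1.89 and 1.97) and RPA2 (2.07, 2.31 and 2.16 against 2.22, 2.15 and 2.22) did not pass.

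TIMELESS, a fork protection factor, was at 3.05, 3.1 and 3.1 RPKM in 2N and at 3.72, 3.69 and 4.14 in 4N (log2 0.28, SE 0.08, limma adjusted p = 0.0329). The groups did not overlap, but the call was lost without any 1 of the 6 untreated libraries (limma adjusted p from 0.0527 to 0.131), with the paired block (0.0672) and on RPM (0.0795), while it was kept with the number as a block (0.0374). CHAF1A and CHAF1B, the large and middle subunits of the histone chaperone CAF-1, fell. RBBP4, its small subunit, which also belongs to other complexes and was not on the list, did not pass (log2 -0.07, limma adjusted p = 0.591). CHAF1B went from 1.4, 1.44 and 1.52 to 0.922, 0.965 and 0.889 (log2 -0.45, SE 0.04, limma adjusted p = 2.15e-06), and CHAF1A from 1.84, 1.9 and 2.01 to 1.38, 1.31 and 1.32 (log2 -0.39, limma adjusted p = 4e-05).

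Every one of the genes was lower under both drugs. In 4N cells, 28 of 28 fell under cytochalasin D (44.4% of all genes tested fell) and 28 of 28 under ZM447439 (35.5% of all). The 2 comparisons share the untreated 4N libraries. The median log2 change was -1.73 under cytochalasin D and -1.02 under ZM447439, against -0.13 and -0.07 over all genes tested. Without the 6 libraries that stood apart the counts were again 28 and 28. The summed level of the 47 genes was 3303 to 3360 RPM in untreated 4N libraries, 1369 to 1411 under ZM447439 and 641.6 to 686.1 under cytochalasin D. The summed G2 and mitosis markers were at 1020 to 1317 RPM under ZM447439 and 509.2 to 570.5 under cytochalasin D in 4N, far below untreated 4N; their part in the fall of the replication genes was not tested. Log2 changes carry 0.5 RPKM added to each value and so understate the fall of genes at low level: on RPM the change was over 1.5 times as large in 11 of the 28 under cytochalasin D, by up to 2.25 times (CHAF1B, -1.15 against -2.59), and in 4 under ZM447439. Folds below are ratios of group means with nothing added.

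**Figure D2:**
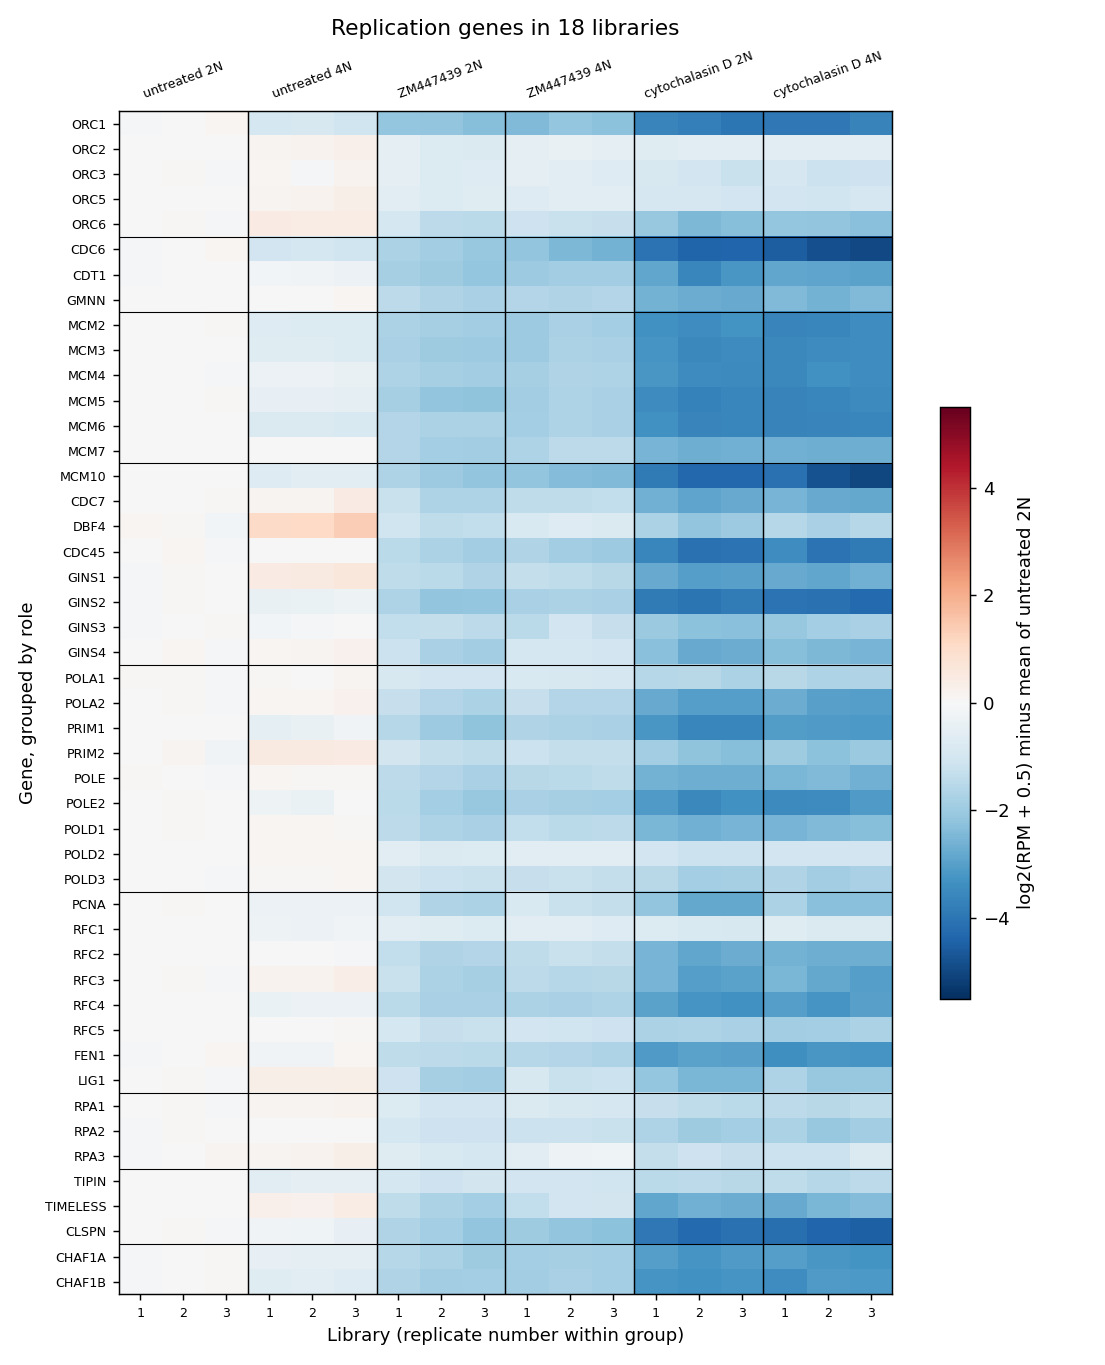
Level of all 47 genes (rows, by role) in all 18 libraries (columns, by group), as log2(RPM + 0.5) minus the gene's mean in untreated 2N cells; blue is lower and red higher. The 12 drug libraries are below the 6 untreated ones in every row, and cytochalasin D columns are the darkest blue, with ORC2 and RFC1 among the palest rows.

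The licensing genes showed large falls. CDC6 lay at 0.251, 0.195 and 0.173 RPKM in cytochalasin D 4N cells, 15.2-fold below untreated 4N (log2 -2.36, SE 0.08, limma adjusted p = 1.29e-11, and -3.74 on RPM), and at 1.4, 1.15 and 1.04 in ZM447439 4N cells, 2.61-fold below (log2 -1.10, limma adjusted p = 5.94e-08). GMNN lay at 0.645, 0.579 and 0.652 under cytochalasin D (6.09-fold lower; log2 -1.94, limma adjusted p = 3.92e-12) and at 1.18, 1.15 and 1.18 under ZM447439 (3.26-fold lower; log2 -1.37). For both genes the 3 groups of 4N libraries were separate, with untreated highest and cytochalasin D lowest. CDT1, at 1.97, 2.1 and 2.1 RPKM under ZM447439, showed the largest log2 change of the 28 with that drug (-1.56, SE 0.10, limma adjusted p = 1.46e-08; 3.43-fold), and ORC6 fell to 0.844, 0.801 and 0.749 under cytochalasin D (6.52-fold) and to 1.71, 1.61 and 1.58 under ZM447439 (3.19-fold).

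All 6 helicase subunits fell under each drug in 4N cells. By ratio of means the falls with cytochalasin D ran from 6.3-fold (MCM7) to 8.83-fold (MCM5). MCM4 went to 1.39, 1.58 and 1.51 RPKM (8.57-fold lower; log2 -2.74, SE 0.07, limma adjusted p = 1.01e-12), and lay at 4.65, 5.24 and 5 under ZM447439 (2.58-fold lower). MCM6 was at 0.278, 0.286 and 0.296 under cytochalasin D (log2 -1.75, and -2.84 on RPM, where it was 7.45-fold lower) and 0.994, 1.12 and 1.06 under ZM447439 (2.02-fold lower). MCM7, level between untreated sorts, fell as well, to 5.26, 5.08 and 5.12 under cytochalasin D and to 10.2, 12.2 and 12 under ZM447439 (2.83-fold). The ring summed to 133.7 to 141.8 RPM under cytochalasin D and 372.4 to 433.5 under ZM447439.

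GINS2 and GINS4, subunits of the complex that activates the helicase, fell 17-fold and 6.47-fold under cytochalasin D in 4N cells. GINS2 was at 0.156, 0.148 and 0.131 RPKM there (log2 -2.20, limma adjusted p = 3.92e-12, and -3.79 on RPM) and at 0.891, 0.91 and 0.903 under ZM447439. GINS4 was at 0.74, 0.665 and 0.639 under cytochalasin D (log2 -2.06, limma adjusted p = 7.43e-10) and at 1.95, 1.96 and 1.84 under ZM447439. Of the annotated GINS4 exon bases, 21.2% are shared with a gene on the opposite strand, and the libraries did not mark strand, so their reads cannot be told apart.

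Falls of the tested polymerase subunits under cytochalasin D ran from 2.24-fold (POLD2) to 8.84-fold (POLA2). POLD1, the catalytic subunit of polymerase delta, lay at 0.377, 0.409 and 0.433 RPKM under cytochalasin D (5.99-fold lower; log2 -1.70, limma adjusted p = 3.92e-12) and at 0.88, 0.802 and 0.824 under ZM447439 (2.91-fold lower). POLD2, the accessory subunit of the same enzyme, lay at 7.49, 7.52 and 7.57 (2.24-fold lower; log2 -1.11, limma adjusted p = 9.83e-11) and at 10.4, 10.4 and 10.3 (1.63-fold lower). POLA2 fell 3.17-fold under ZM447439, and shares 35.1% of its annotated exon bases with another gene.

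With 0.5 RPKM added, FEN1 had the largest log2 change of the 28 genes under cytochalasin D; by ratio of means GINS2 and CDC6 fell more. RFC1 had the smallest fall on both scales. FEN1 lay at 2.22, 2.47 and 2.42 RPKM in cytochalasin D 4N cells, 9.47-fold below untreated (log2 -3.0, SE 0.07, limma adjusted p = 1.01e-12), and at 8.06, 7.65 and 7.32 under ZM447439 (2.92-fold lower). RFC1, the large subunit of the clamp loader, lay at 0.656, 0.606 and 0.615 (1.42-fold lower; log2 -0.30, SE 0.04, limma adjusted p = 2.95e-06, and -0.50 on RPM) and at 0.7, 0.678 and 0.652 (1.31-fold lower; log2 -0.24, limma adjusted p = 6.11e-05). RFC4 of the same loader fell 7.36-fold and 2.69-fold. PCNA was at 5.51, 3.78 and 3.8 under cytochalasin D (3.41-fold lower; limma adjusted p = 1.44e-06) and at 10.3, 7.96 and 7.48 under ZM447439 (1.73-fold lower; log2 -0.77, limma adjusted p = 0.00284). In both drug groups number 1, one of the libraries that stood apart, was the highest for PCNA.

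Both tested subunits of RPA fell. RPA1 lay at 0.625, 0.582 and 0.641 RPKM under cytochalasin D (3.11-fold lower) and 0.974, 0.937 and 0.893 under ZM447439 (2.05-fold lower), and RPA2 at 0.635, 0.502 and 0.571 (3.86-fold) and 0.955, 0.943 and 0.929 (2.33-fold). TIMELESS was at 0.435, 0.533 and 0.58 (7.46-fold lower) and at 1.21, 1.5 and 1.51 (2.74-fold lower). CHAF1A and CHAF1B fell 6.63-fold and 6.52-fold under cytochalasin D and 2.55-fold and 2.36-fold under ZM447439, to 0.221, 0.198 and 0.186 RPKM and 0.122, 0.152 and 0.151 RPKM under cytochalasin D.

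**Figure D3:**
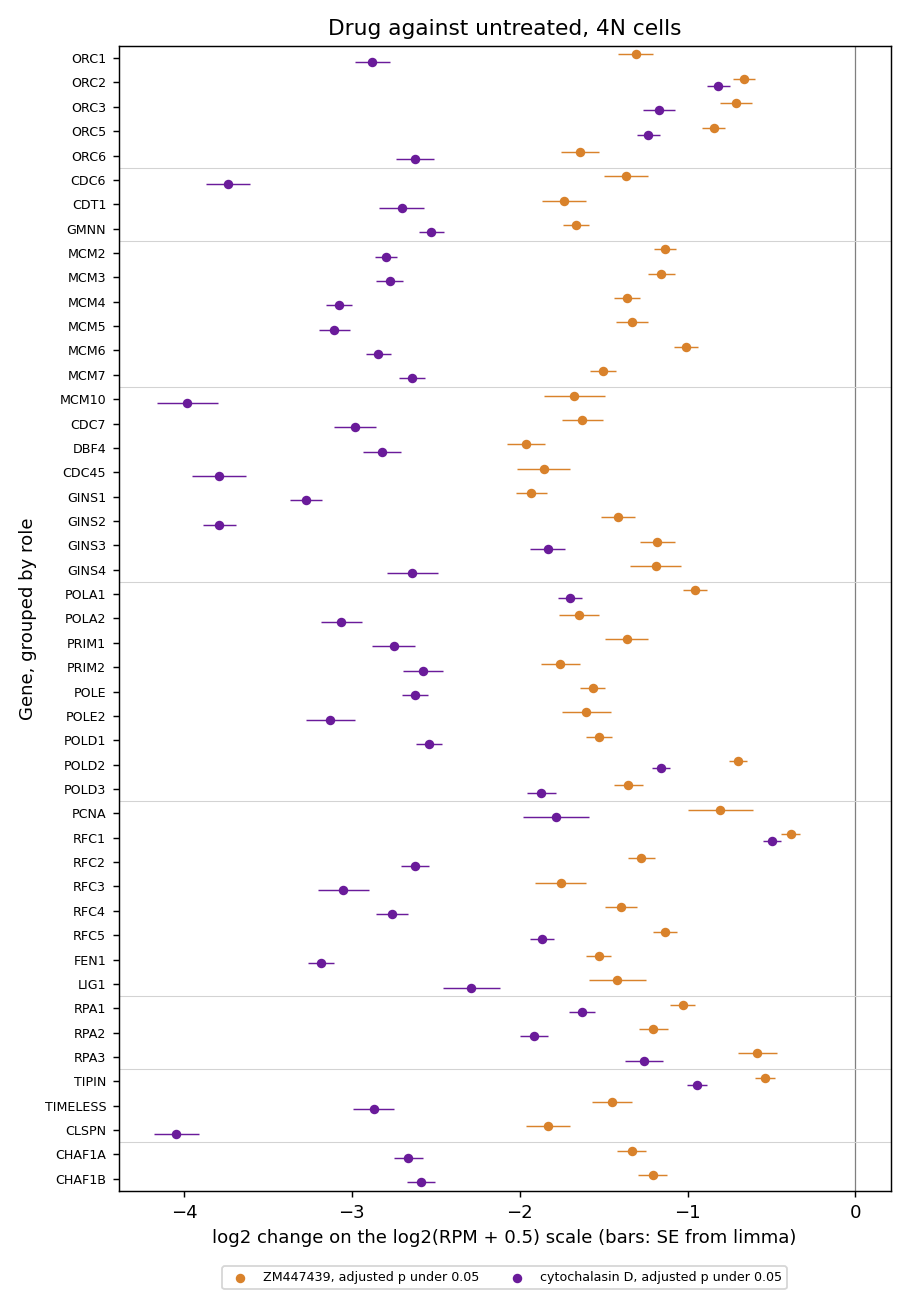
Log2 change in 4N cells under ZM447439 (orange) and cytochalasin D (purple) against untreated 4N cells for all 47 genes, on the log2(RPM + 0.5) scale with the SE from limma (3 libraries a group). All points lie left of 0; CLSPN (-4.05), MCM10 (-3.98) and CDC45 (-3.79) reach farthest with cytochalasin D and RFC1 (-0.50) least.

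The 2N sorts gave the same count. All 28 genes fell under cytochalasin D (39.5% of all genes tested) and all 28 under ZM447439 (32.5% of all), with medians of -1.94 and -1.27 on the log2 scale. CDC6 went from a lowest untreated 2N library of 6.16 RPKM to 0.36, 0.27 and 0.279 under cytochalasin D (21.3-fold lower; log2 -3.12, limma adjusted p = 1.12e-12) and to 1.91, 1.67 and 1.52 under ZM447439 (3.81-fold lower). MCM2 went to 0.719, 0.664 and 0.721 (10.4-fold lower) and to 2.15, 2.05 and 1.94 (3.57-fold lower). RFC1 again changed least of the 28 (1.77-fold and 1.6-fold lower). In 2N the 47 genes summed to 3690 to 3762 RPM in untreated cells, 1171 to 1463 under ZM447439 and 606.8 to 695 under cytochalasin D.

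Set against untreated 2N cells, drug-treated 4N cells were also lower throughout. All 28 genes fell in cytochalasin D 4N cells (40.2% of all genes tested fell) and in ZM447439 4N cells (27.3% of all), with medians of -1.86 and -1.11. These comparisons share the untreated 2N libraries with those of the paragraph above. MCM10, which helps to activate the helicase and was under the filter, was 32-fold lower and CDC6 31.4-fold lower in cytochalasin D 4N than in untreated 2N cells.

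Cytochalasin D libraries lay below ZM447439 libraries for nearly all the genes. In 4N cells 27 of 28 were lower under cytochalasin D (27.8% of all genes tested), with a median of -0.73, and RFC1 did not pass (log2 -0.06, limma adjusted p = 0.166). In 2N cells the same test called 27 of 28 (23.2% of all), with a median of -0.67 and RFC1 again the exception (log2 -0.08, limma adjusted p = 0.0791), though it passed on RPM (-0.15, 0.0428). Among the 28, the 4N ratio of means was largest for GINS2 (6.21-fold lower) and CDC6 (5.82-fold), and 3.24-fold for FEN1, which had the largest log2(RPKM + 0.5) difference (-1.51). On RPM the 4N difference was over 1.5 times as large in 17 of the 28, by up to 2.91 times. Since dose and duration of cytochalasin D are not stated, the drugs are not known to be matched in either. Across all 47 genes, the 6 untreated libraries were above all 12 drug libraries in 47 of 47 (21% of all genes in the RPM fit). In 43 of them the 3 treatments separated fully, untreated above ZM447439 above cytochalasin D in all 6 libraries each (8.78% of all genes). The 4 that did not separate were ORC2, RFC1, LIG1 and RPA3.

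**Figure D4:**
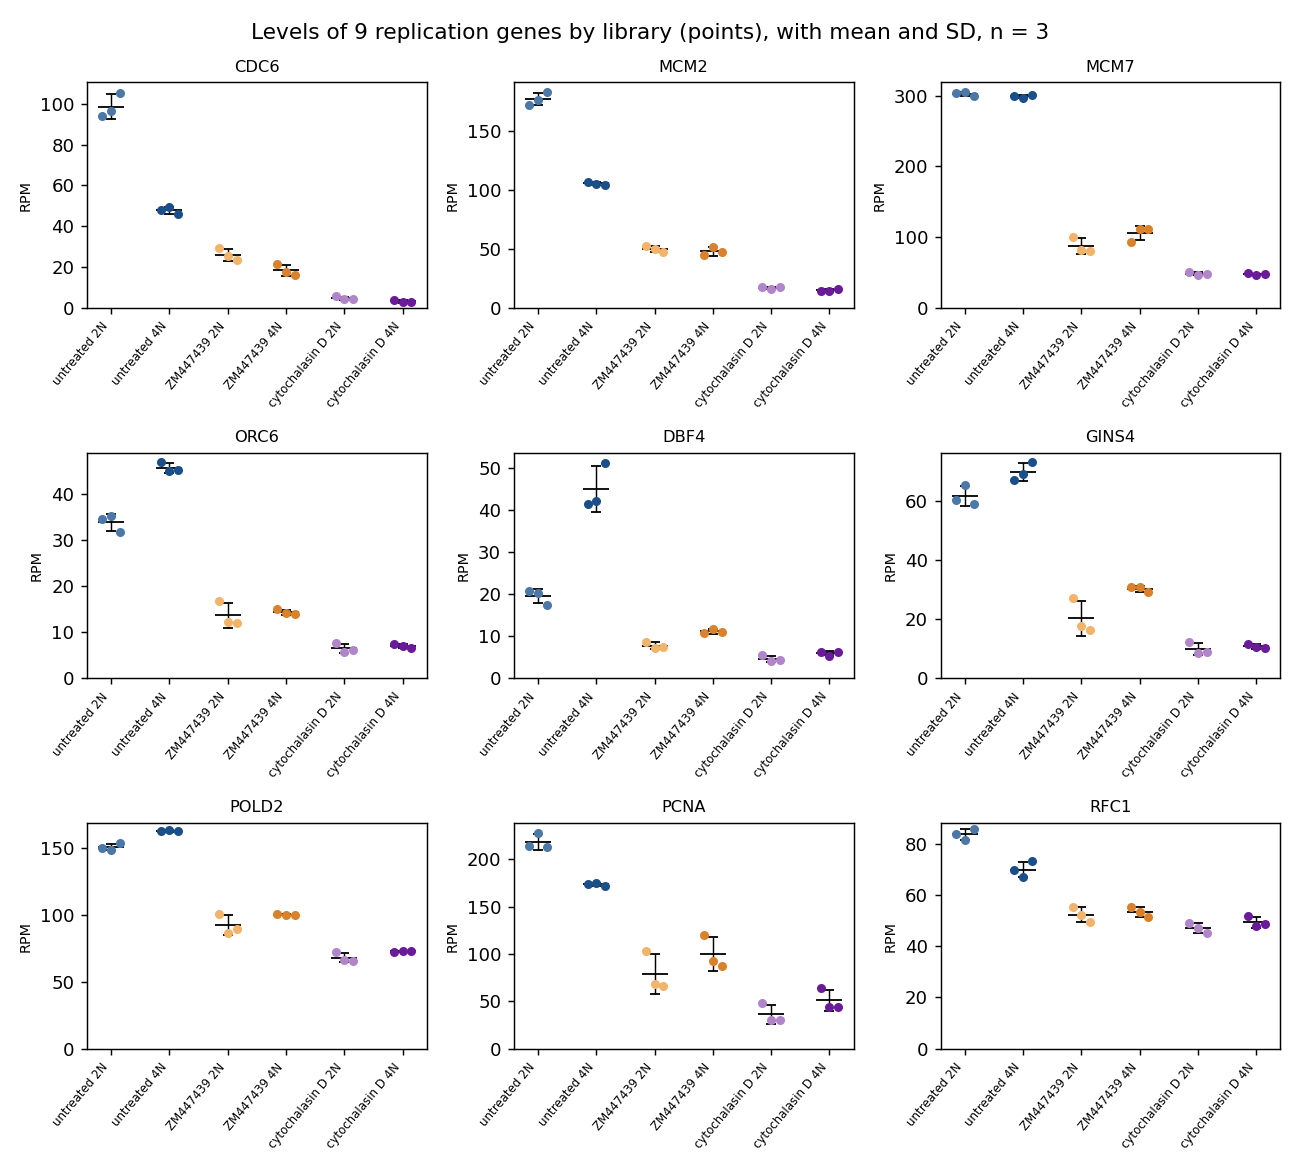
Level in RPM of 9 genes in each library (points), with the mean and SD of each group of 3 (bars). CDC6 and MCM2 are lower and DBF4 and ORC6 higher in untreated 4N than in untreated 2N cells, MCM7 is level, and under the drugs all 9 are below both untreated groups.

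Within the drug treatments, few of the 28 genes passed between the 4N and 2N sorts. Under cytochalasin D, 0 of 28 genes passed (0% of all genes tested; 0 of 13037), while 5 of the 28 and 682 of all genes had an unadjusted p under 0.05. The median log2 difference was 0.01. With 0.5 RPKM added, differences between these sorts were understated: over the 28 genes those on RPM were 1.06 to 3.79 times as large. With the paired block PCNA passed (log2 0.44, limma adjusted p = 0.0498), and with the number as a block 0 of 28 passed. Its 2N libraries were at 4.12, 2.63 and 2.59 RPKM and its 4N libraries at 5.51, 3.78 and 3.8, higher in 4N within each number. CDC6 was at 0.36, 0.27 and 0.279 in 2N and at 0.251, 0.195 and 0.173 in 4N, lower in 4N within each number, but did not pass (log2 -0.19, limma adjusted p = 0.914).

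Under ZM447439, 3 genes rose in 4N against 2N (5.21% of all genes tested rose) and 1 fell (2.45% of all). On RPM the difference was over 1.5 times as large in 11 of the 28, by up to 2.16 times. GINS4 was at 1.71, 1.12 and 1.02 RPKM in 2N and 1.95, 1.96 and 1.84 in 4N (log2 0.46, SE 0.11, limma adjusted p = 0.0247). TIMELESS was at 1.16, 0.923 and 0.828 against 1.21, 1.5 and 1.51 (log2 0.37, SE 0.08, limma adjusted p = 0.0178). In both, 2N number 1 was the highest of its group, and all 4N libraries were above all 2N ones. MCM7 overlapped, at 10.8, 8.93 and 8.7 in 2N and 10.2, 12.2 and 12 in 4N (log2 0.26, SE 0.07, limma adjusted p = 0.0489), and was not called with the paired block (0.0884) or with the number as a block (0.051). CDC6 fell from 1.91, 1.67 and 1.52 to 1.4, 1.15 and 1.04 (log2 -0.37, SE 0.08, limma adjusted p = 0.0155). The paired block added LIG1 (log2 0.28, limma adjusted p = 0.00954) and PCNA (0.34, 0.0077) as rises and FEN1 (-0.18, 0.0212) as a fall. With the number as a block LIG1 passed (0.0173), and PCNA (0.0942) and FEN1 (0.127) did not.

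These ZM447439 calls were lost when any 1 of several libraries was left out, while the direction stayed the same. GINS4, TIMELESS and MCM7 each lost the call without 2N number 2, 2N number 3, 4N number 2 or 4N number 3, with limma adjusted p of 0.0799 to 0.132, 0.0815 to 0.0969 and 0.187 to 0.21. CDC6 lost it without 2N number 2 (0.0621), 4N number 2 (0.0746) or 4N number 3 (0.0862). Within replicate numbers, 38 of 47 genes were higher in 4N than in 2N for number 2 (median log2 difference 0.12) and 37 for number 3 (0.13), but 11 for number 1 (-0.11), a number whose libraries stood apart. Without the 6 such libraries 13 of 28 rose and 2 fell (the share of all genes in that fit is not given). In untreated cells 24, 19 and 25 of 47 were higher in 4N for numbers 1, 2 and 3. Counts by number over all genes are not given, so those here are not read as particular to the replication genes. The G2 and mitosis markers summed to 318.3 to 679.2 RPM in ZM447439 2N and 1020 to 1317 in ZM447439 4N, where 17 of 19 tested genes rose; their part was not tested.

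The difference between 4N and 2N was tested against that in untreated cells as an interaction. With cytochalasin D 9 of 28 genes had a more positive difference (1.8% of all genes tested) and 0 a more negative one (6.04% of all), and with ZM447439 11 (3.52%) and 0 (6.58%). Both tests share the untreated libraries. At an unadjusted p under 0.05 there were 15 in each, 13 and 14 of them more positive. Of all 13037 genes tested, 2612 and 3296 had such a p in either direction. MCM2 fell by 0.69 on the log2 scale in untreated 4N cells, and its differences under cytochalasin D and ZM447439 were -0.11 and -0.04 (interactions 0.57 and 0.64, limma adjusted p = 0.000254 and 0.000135). MCM6 gave interactions of 0.62 and 0.60, MCM3 of 0.62 and 0.71, and CHAF1B of 0.47 and 0.43. CDC6 gave 0.76 and 0.57 (limma adjusted p = 0.00111 and 0.00669) but did not pass on RPM (0.54 in each; limma adjusted p = 0.0841 and 0.0683). MCM5 with cytochalasin D (0.44, limma adjusted p = 0.0176) lost the call without untreated 2N number 3 (0.41, 0.0509). With the paired block PCNA joined both (0.75 and 0.66, limma adjusted p = 0.000962 and 0.00132), and ORC6 was called as more negative with ZM447439 (-0.33, 0.0434). The number as a block called PCNA in both as well (limma adjusted p = 0.0164 and 0.0272), and ORC6 as more negative with cytochalasin D (-0.32, 0.0485) and ZM447439 (0.0358).

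The 19 genes under 0.5 RPKM are given in RPM. In untreated cells 5 of them rose and 3 fell in 4N against 2N (13.6% and 6.73% of all genes in the RPM fit). DBF4, the activating subunit of the CDC7 kinase, was at 20.8, 20.2 and 17.5 RPM in 2N and at 41.4, 42.2 and 51.2 in 4N, 2.3-fold higher (log2 1.18, SE 0.11, limma adjusted p = 3.92e-06). GINS1 was at 29.7, 32.5 and 30.6 against 42.1, 43.9 and 47.4 (log2 0.52, limma adjusted p = 0.00104). Every 4N library of both genes was above every 2N library.

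ORC1, an ATPase subunit of the origin recognition complex, was at 32.2, 32.7 and 36 RPM in untreated 2N and at 17.2, 18.1 and 15.7 in untreated 4N, 1.98-fold lower (log2 -0.96, SE 0.11, limma adjusted p = 1.33e-05). MCM10 fell from 46.1, 45.2 and 47.4 to 28.1, 29.7 and 29.6 (log2 -0.66, SE 0.18, limma adjusted p = 0.0175), a call lost without untreated 2N number 3 (0.0563) or 4N number 1 (0.0584). TIPIN, the partner of TIMELESS, fell from 19.1, 18.2 and 18.9 to 12.5, 12.6 and 13.2 (log2 -0.53, SE 0.06, limma adjusted p = 1.53e-05). TIPIN shares 21% of its annotated exon bases with a pseudogene. The other risers were PRIM2 (22.2, 24.2 and 19.3 against 30.6, 31.2 and 30.2; log2 0.48, limma adjusted p = 0.00851, and 0.0506 without untreated 2N number 3), whose reads could include a near-identical copy, ORC2 (log2 0.20, limma adjusted p = 0.0429) and ORC5 (0.22, 0.0312). The ORC2 call was lost without any 1 of 6 libraries (limma adjusted p from 0.0523 to 0.169) and that of ORC5 without any 1 of 5 (0.0565 to 0.135).

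Under the drugs all 19 fell in both sorts, with 4N medians of -2.75 for cytochalasin D and -1.36 for ZM447439 (39.9% and 32.3% of all genes in the RPM fit fell, and 35.4% and 29.4% in 2N). MCM10 was at 2.2, 1.16 and 0.973 RPM in cytochalasin D 4N cells (20.2-fold below untreated 4N) and 9.77, 8.53 and 8.12 in ZM447439 4N cells. CLSPN, the adaptor of the checkpoint kinase at the fork, went from 52, 50.2 and 43.4 to 2.89, 2.38 and 2.15 (19.6-fold; log2 -4.05, SE 0.13, limma adjusted p = 1.84e-12) and to 15.2, 12.7 and 12 (3.65-fold). CDC45 fell 16-fold and POLE2 12.9-fold under cytochalasin D. DBF4, which rose in untreated 4N cells, was at 6.22, 5.38 and 6.14 under cytochalasin D (7.6-fold lower) and 10.6, 11.7 and 11.1 under ZM447439 (4.04-fold lower).

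In 4N cells under cytochalasin D the smallest falls of these 19 were in ORC2 and TIPIN. ORC2 was at 33.3, 34.3 and 37 RPM in untreated 4N, 19.6, 19.1 and 20 under cytochalasin D (1.78-fold lower) and 21.6, 22.4 and 21.5 under ZM447439 (1.6-fold lower). Its 2N libraries under the drugs overlapped, at 18.7, 19.6 and 19.5 against 21.5, 18 and 17.4, so that ZM447439 2N was the lowest group for this gene alone. TIPIN was at 6.77, 5.97 and 6.5 under cytochalasin D 4N (1.99-fold lower) and 8.74, 8.67 and 8.54 under ZM447439 (1.48-fold lower). Between sorts of the same drug, none of the 19 passed under cytochalasin D (0.00478% of all genes in the RPM fit), and DBF4 (log2 0.50, limma adjusted p = 0.0159) and RPA3 (0.45, 0.0291) rose under ZM447439 (4.77% of all). RPA3 was at 12.7, 10.9 and 10.2 in 2N and 13.4, 16.3 and 17 in 4N. Both calls were lost without 2N number 2 or 3 or 4N number 2 or 3 (limma adjusted p from 0.0637 to 0.0877 for DBF4 and from 0.115 to 0.151 for RPA3). The paired block called MCM10 as lower in 4N under cytochalasin D (-0.47, limma adjusted p = 0.0305) and under ZM447439 (-0.38, 0.00728), with CLSPN lower (-0.22, 0.0427) and ORC2 higher (0.20, 0.0386) under ZM447439; in untreated cells it added falls of CLSPN (-0.30, 0.00591) and PRIM1 (-0.37, 0.0159) and a rise of RFC3 (0.25, 0.0462). Of these, the number as a block called the falls of CLSPN (limma adjusted p = 0.0198) and PRIM1 (0.039) in untreated cells and none of the others.

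Other genes of replication that were not on the list were read from a list of 43, of which 42 were found and 29 tested. In untreated 4N cells 10 rose and 4 fell (12.9% and 4.55% of all genes tested), with a median of 0.10. The falls were FAM111B (-1.25), DTL (-0.45), MCMBP (-0.34) and TONSL (-0.33), and the rises included FAM111A (0.66), the ribonuclease H2 subunit RNASEH2A (0.44) and the histone chaperone ASF1A (0.42). Under cytochalasin D 26 of 29 fell in 4N cells (median -0.90), among them RNASEH2A (-2.75), ASF1B (-2.73) and RECQL4 (-2.20), and POLD4, the small subunit of polymerase delta, rose (0.47). Under ZM447439 25 fell (median -0.56), and POLD4 (0.65), CUL4B (0.29) and DDB1 (0.09) rose. POLD4 thus moved in the other direction from POLD1 and POLD2 in both drug comparisons, which share their controls. Of 15 G1/S genes outside the replication list, taken as phase markers, 11 were tested. In untreated 4N cells 2 rose and 5 fell. In drug-treated 4N cells 10 fell under cytochalasin D, and 9 fell and 1 rose under ZM447439. Beside both lists, 44.4% of all genes tested fell under cytochalasin D in 4N cells and 35.5% under ZM447439.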

How the data were processed

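Polyadenylated RNA of the 18 libraries was read from 1 table of RPKM values deposited by the authors. Per the submitters' processing notes, CASAVA 1.8.2, TopHat2 and edgeR and the build hg19 were used; how reads were counted is not given in sources used here. In low values (under 200 reads), 86.2% to 86.8% were whole numbers of reads (tolerance 0.01) with the gene span as length, against 1.95% to 2.42% with exon length. Gene symbols and spans came from GENCODE 29. RPM is RPKM times the recovered length, and the reads recovered in genes were 49932555 to 78054504 per library. With limma 3.58.1 in R 4.3.3, log2(RPKM + 0.5) was fitted with 1 mean per group over all 18 libraries (12 residual degrees of freedom, prior 2.02, trended), for the 13037 genes averaging 0.5 RPKM or more; log2(RPM + 0.5) of 20903 genes with a mean of at least 0.5 RPM was fitted likewise. Tests were two-sided with Benjamini-Hochberg adjustment over all genes fitted, at 0.05, in 13 comparisons. The scripts were tested on simulated data. No count test was run, since the reads were recovered from RPKM and no length was found for 1931 genes with values. The members and gene lists were chosen with earlier results of these data known. Per-library values are given for the members with the largest rise and fall per role in untreated cells, the largest and smallest change per role under cytochalasin D in 4N cells, and those called between the sorts of a drug. Libraries of equal number in the 2N and 4N sorts of a treatment had positively correlated deviations (0.192 to 0.632 over 9 pairs). Some of unequal number correlated as much: untreated 2N number 1 gave 0.194 with 4N number 1 and 0.258 with 4N number 2. The pairing was thus assumed from the numbers and not shown for each. Treatment and number together formed the paired block used between sorts, beside a block of the number alone over all libraries. Untreated and drug libraries were not paired (-0.206 to 0.338 over 24 pairs). Alternatives were another pseudocount, no filter, RPM, quantile or median rescaling, no trend, own groups only, both blocks, and each library or the 6 apart left out. Annotated exons of 21 of the 47 genes overlap another gene, 6 of them over more than 10% of their exon bases. These 6 were POLA2 (35.1%), MCM2 (22.7%), GINS4 (21.2%), TIPIN (21%), PRIM1 (14.9%) and GINS3 (10.9%).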

Additional observations from a re-analysis of the deposited data

Results flagged for a closer look

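These results were picked out because the difference between 4N and 2N cells was not the same under a drug as in untreated cells, by a test of the interaction on the log2 scale (limma, Benjamini-Hochberg adjustment over all genes). Both drugs were set against the same untreated libraries. Positive values mean that 4N was less far below, or further above, 2N under the drug than without it.

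With cytochalasin D, the helicase genes MCM2 (0.572, adjusted p = 0.000254), MCM3 (0.62, 0.00127), MCM5 (0.441, 0.0176) and MCM6 (0.62, 3.77e-05) gave positive values. CDC6 gave 0.756 (0.00111), CHAF1A 0.384 (0.0026), CHAF1B 0.465 (0.000192), RFC1 0.208 (0.0205) and RFC4 0.304 (0.0165). In all 9 the level was lower in untreated 4N than in untreated 2N cells. The RFC1 call was lost when any 1 of 3 libraries was left out (adjusted p from 0.0547 to 0.0577), and RFC4 did not pass on RPM (0.41, 0.0723) or with a pseudocount of 0.1 (0.39, 0.0692). CDC6 did not pass on RPM either (0.54, 0.0841).

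With ZM447439, MCM2 gave 0.643 (adjusted p = 0.000135), MCM3 0.712 (0.000525), MCM4 0.427 (0.0119), MCM5 0.66 (0.0014) and MCM6 0.603 (7.08e-05). GINS2 gave 0.447 (0.00627), CDC6 0.568 (0.00669), CHAF1A 0.342 (0.00517), CHAF1B 0.432 (0.000411), RFC1 0.187 (0.0317) and RFC4 0.245 (0.043). The RFC4 call was lost on RPM (0.29, 0.185), with a pseudocount of 0.1 (0.28, 0.159) and without any 1 of 11 libraries (0.0558 to 0.106), and the RFC1 call without any 1 of 8 (0.0509 to 0.0809). The CDC6 call was lost on RPM (0.545, 0.0683) and with a pseudocount of 0.1 (0.55, 0.0555).

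Of the 19 genes under 0.5 RPKM, tested on RPM, ORC1 gave 0.901 with cytochalasin D (adjusted p = 0.00181) and 0.893 with ZM447439 (0.00168), and TIPIN 0.548 (0.00101) and 0.501 (0.00172). PRIM1 gave 0.708 with cytochalasin D (0.0262), a call lost without any 1 of 8 libraries (0.0502 to 0.0724). DBF4 moved the other way, with -0.847 for cytochalasin D (0.00401) and -0.678 for ZM447439 (0.0136): its rise in 4N cells was smaller under each drug than in untreated cells.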

How the results depend on the processing

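Over 9093 recomputed values of single genes, 8849 kept the side of the threshold, 132 gained and 112 lost the call. Direction was compared only where either value was called, and 0 of these reversed. Of the 28 genes, the 13 called in untreated 4N against 2N became 12 without any 1 library; with no filter 23 and on RPM 20 of 47 were called (13 to 18 without 1 library). Against untreated cells, all 47 genes were called with no filter and on RPM for both drugs in 4N, in 2N and for drug 4N against untreated 2N (46 to 47 for ZM447439 4N without 1 library). Cytochalasin D against ZM447439 gave 45 and 45 in 4N and 44 and 46 in 2N (45 to 46 on RPM without 1 library).

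The 4N to 2N differences within drugs moved most. For cytochalasin D the 0 calls became 1 with the replicate block by culture and 4 without the 6 libraries that stood apart (0 to 0 without 1 library), and on RPM 5 and 16. For ZM447439 the 4 calls became 2 with no filter, 0 when fitted on its own groups only, 6 with the replicate block by culture, 15 without the 6 libraries and 0 to 10 without 1 library, highest without 2N number 1; on RPM the 6 calls became 14 with the block, 26 without the 6 libraries and 0 to 15 without 1 library. The block by culture pairs the sorts by treatment and number. In untreated cells it gave 14 calls, with 10 for the interaction with cytochalasin D and 13 for that with ZM447439; on RPKM it changed no call beyond those named above. The replicate block by number gave 14, 0, 4, 11 and 13 calls in untreated cells, cytochalasin D, ZM447439 and the interactions with each drug, and 28 of 28 against untreated cells for both drugs. The 9 interactions with cytochalasin D became 16 with no filter, 14 without the 6 libraries and 7 to 12 without 1 library, and on RPM 17 with the block, 18 without the 6 and 8 to 16. The 11 with ZM447439 became 17 with no filter, 17 without the 6 libraries and 9 to 15, and on RPM 27 without the 6 and 9 to 19. Shares of all genes called in these other fits are not given, so these counts are not read as particular to the replication genes. The causes were not tested. Depth limited few values, since the fewest reads of a gene in a library were 44, and with 3 libraries a group small differences between sorts were not resolved.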
